A study of Homo sapiens with 12 samples.

Results

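Activation of FoxO1 was read as the transcript change that 4-hydroxytamoxifen (4OHT) gave in cells carrying a FoxO1 fusion, beyond the change it gave in control cells. This comparison uses 8 of the 12 arrays of the series, those of the FoxO1 and empty vector (EV) cells. Both constructs were carried by RCC4 and UMRC2, established human kidney cancer lines. FoxO1 cells stably expressed FoxO1(TA)ERT2, in which the AKT phosphorylation sites of FoxO1 are changed to alanine and the protein is joined to the modified estrogen receptor moiety ERT2. EV cells stably expressed the ERT2 moiety without FoxO1, so both groups carry an ERT2 construct and were kept under puromycin. Each of the 4 engineered lines received 100 nM 4OHT or the ethanol vehicle for 12 h and gave 1 array per treatment, hybridised with total RNA from 1 culture plate. Whether each engineered line is 1 clone or a pool is not given in the sources used here.

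FoxO1 is a forkhead transcription factor that binds DNA directly and can raise or lower the genes near its sites. Growth factor signals through AKT phosphorylate it and keep it in the cytoplasm, so replacing the phosphorylated residues by alanine frees it from that control. The ERT2 part holds the fusion in the cytoplasm until 4OHT binds. FoxO factors are known for slowing the cell cycle, for stress resistance, for control of metabolism under fasting and, in clear cell kidney cancer, as candidate tumour suppressors.

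The response of a cell line was its log2 level with 4OHT minus its log2 level with vehicle, and the FoxO1 effect was the FoxO1 response minus the EV response of the same line. Levels were put on a common scale by quantile normalisation, and the lowest ones were set to a floor of log2 4.20. The array median was log2 6.67. Of 19775 genes on the array, 14285 were tested with limma, in which the cell lines served as the 2 replicates of each construct. Its p-values therefore measure how far the lines differ, with array noise included, and not the spread of repeat cultures. Errors after ± are standard errors from limma, and the number of arrays limits their precision. In RNA from whole cultures, fewer cells expressing a gene and less of its RNA per cell cannot be told apart.

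The fusion was visible through its estrogen receptor part. Of 9 ESR1 probe sets, 5 stood at least log2 2 above EV in both FoxO1 lines without 4OHT. In RCC4 these 5 had a median level of 9.22 against 5.28 in EV cells, and in UMRC2 one of 12.29 against 4.63, so these probe sets read far more transcript in the FoxO1 lines. How far each of them lies within the ERT2 part that EV cells also carry was not tested, and a difference in the amount of ERT2 cannot be told apart from the presence of FoxO1 in this design. The FOXO1 probe set used did not show the fusion, standing at 6.36 to 7.53 over the EV arrays and 6.5 to 7.12 over the FoxO1 arrays; whether it lies outside the transgene is not given in the sources used here. Its mean FoxO1 effect was -0.32, and another bright FOXO1 probe set gave 0.59. Of 9 markers read for the kidney tumour epithelium from which the lines come, 6 (PAX8, PAX2, KRT8, KRT18, VIM and CDH2) were at or above the array median on all 8 arrays. CDH6 was below it on 1 array, KRT19 was at the floor on the 4 RCC4 arrays and at 10.19 to 10.39 in UMRC2, and CDH1 was below it on all 8. Of markers of other cells, 1 of 8 for endothelium (PECAM1), 2 of 5 for blood (ITGAM and HBB), 3 of 7 for fibroblasts (DCN, COL1A1 and THY1) and 1 of 5 for other kidney cells (AQP2) were at or above the array median on all 8 arrays. CDH5 of endothelium, CD14 of monocytes and NPHS1 of podocytes were at the floor on all 8.

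By limma 12 genes rose under FoxO1 relative to EV and 0 fell, at an adjusted p under 0.05 over all genes tested. These are 0.084% and 0% of the genes tested, and 1431 genes had an unadjusted p under 0.05, of which 653 were higher and 778 lower. The 12 genes span transport and trafficking, enzymes, cell junctions and signalling. Their adjusted p-values lay between 0.031 and 0.043.

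CLTRN, a kidney membrane protein related to the angiotensin-converting enzyme family that helps place amino acid transporters at the tubule surface, rose most. In RCC4 its log2 level was 7.81 with vehicle and 7.58 with 4OHT under EV, and 7.70 and 11.90 under FoxO1. In UMRC2 it was 5.29 and 4.46 under EV, and 5.87 and 10.58 under FoxO1. Only the FoxO1 arrays with 4OHT were high, and they did not overlap with the other 6. The FoxO1 effect was 4.43 in RCC4 and 5.54 in UMRC2, with a mean of 4.99 ± 0.38 (limma adjusted p = 0.031).

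Membrane transport and trafficking genes formed a further group of called genes. SERINC5, a membrane protein that restricts the entry of retroviruses, went from 7.53 to 10.67 in RCC4 and from 9.68 to 11.88 in UMRC2 under FoxO1, while EV moved from 7.43 to 7.73 and from 9.95 to 9.86. SNAP23, which drives fusion of vesicles with the plasma membrane, went from 10.45 to 11.89 and from 10.86 to 12.36 under FoxO1, against 10.55 to 10.41 and 10.95 to 10.73 under EV. NEDD4L, a ubiquitin ligase that removes sodium channels from the kidney cell surface, went from 8.34 to 10.08 and from 10.19 to 12.78, against 8.43 to 8.29 and 10.18 to 10.20. In each of these genes both FoxO1 arrays with 4OHT stood above all 3 other arrays of their line. The effects were 2.57 ± 0.28 for SERINC5, 1.65 ± 0.16 for SNAP23 and 2.22 ± 0.23 for NEDD4L. One of 6 bright NEDD4L probe sets gave a mean effect of -0.0018, on the other side of 0 from the rest.

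Both called enzyme genes act on small molecules. HNMT, which inactivates histamine by methylation, went from 5.43 to 8.54 in RCC4 and from 9.94 to 13.24 in UMRC2 under FoxO1, while EV moved from 5.23 to 5.89 and from 8.93 to 9.04. CYP27A1, a mitochondrial sterol hydroxylase of the bile acid pathway, went from 6.84 to 8.88 and from 7.38 to 9.97 under FoxO1, against 8.27 to 7.51 and 8.44 to 8.44 under EV. The vehicle arrays of the FoxO1 lines were the lowest for CYP27A1 in both lines, so part of its effect of 2.70 ± 0.28 lies in a lower start. Set against EV cells with 4OHT, its FoxO1 arrays were 8.88 against 7.51 and 9.97 against 8.44. The HNMT effect was 2.82 ± 0.28, with 2.45 in RCC4 and 3.19 in UMRC2. Other bright HNMT probe sets, all of lower mean level, were uneven in RCC4, with -0.59 to 1.29, and gave 1.58 to 4.65 in UMRC2. The RCC4 rise of HNMT therefore depends on the probe set.

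CLDN1, a strand-forming protein of tight junctions, went from 9.22 to 11.43 in RCC4 and from 10.56 to 13.24 in UMRC2 under FoxO1. Under EV it stayed at 9.06 and 9.03, and at 10.30 and 10.30. Its effect of 2.46 ± 0.21 had the opposite sign to that of CLDN2, a pore-forming claudin of the proximal tubule, which gave -1.76 in RCC4 and -1.21 in UMRC2 (adjusted p = 0.122, not past the threshold). CLDN2 went from 11.50 to 9.79 and from 13.64 to 12.51 under FoxO1, with EV between 11.03 and 11.08 and between 13.83 and 13.90.

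Signalling and gene control genes made up the rest. DOCK8, an activator of the GTPase CDC42 best known from immune cells, went from 8.62 to 11.50 and from 5.99 to 9.24 under FoxO1, against 8.87 to 8.59 and 6.11 to 6.63 under EV. CEBPD, a transcription factor induced by stress and inflammation, went from 11.89 to 12.87 and from 12.24 to 13.73, against 12.14 to 11.81 and 12.21 to 12.34. The DOCK8 effect was 2.95 ± 0.28 and the CEBPD effect 1.33 ± 0.15. ARHGEF28, an exchange factor for RhoA, rose by 1.99 ± 0.20, GNG11, a G protein gamma subunit, by 1.10 ± 0.12 and PXDC1 by 1.97 ± 0.21. One of 6 bright ARHGEF28 probe sets gave -0.24.

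**Figure D1:**
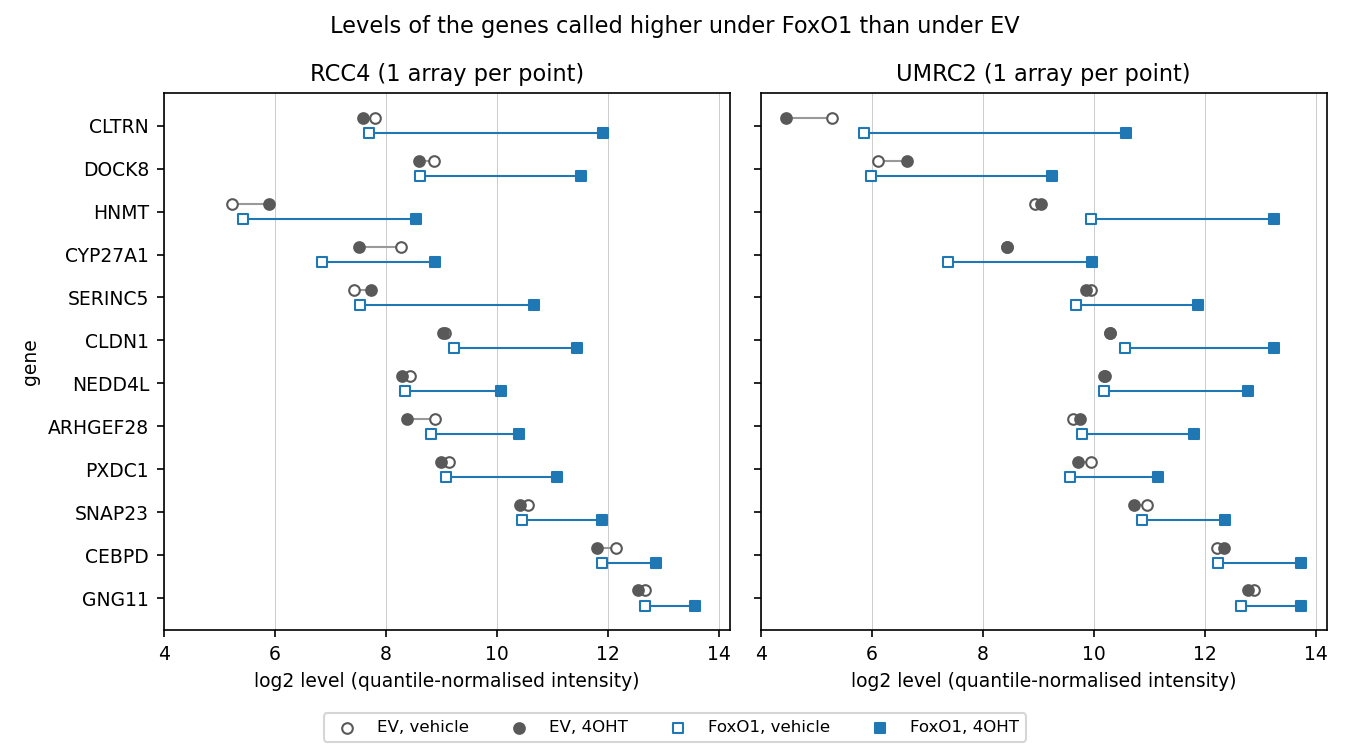
Log2 levels (x axis) of the 12 called genes in the 8 arrays, with RCC4 on the left and UMRC2 on the right; each point is 1 array and each line joins vehicle (open) to 4OHT (filled) of 1 construct. The filled FoxO1 squares are the highest point of every gene in both lines, with the narrowest margin in CYP27A1 (8.88 against 8.27 in RCC4) and the widest in CLTRN (10.58 against 5.87 in UMRC2).

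The calls rest on all 6 responses, since the FoxO3 responses of the series add to the estimate of the spread. With the EV and FoxO1 responses alone 100 genes were higher and 72 lower (0.7% and 0.504% of genes tested), and all 12 were again among the higher. Leaving out 1 FoxO3 pair is the same fit by construction, since the FoxO3 response that remains has its own term and adds nothing to the spread. Without the UMRC2 FoxO1 pair, 0 genes were called by limma (799 at an unadjusted p under 0.05); without the RCC4 FoxO1 pair 26 were higher and 11 lower, and without the RCC4 EV pair 23 and 5. With each array scaled to a common median 27 genes were higher and 9 lower; with the values as deposited 14 were higher and 1 lower, and only 3 of the 12 (CLTRN, DOCK8 and HNMT) kept their call. With the mean of a gene's bright probe sets 1 gene (CLTRN) was called, without a term for the cell line 2, and with a constant prior variance or with no filter on dim genes 0 (1139 and 1719 at an unadjusted p under 0.05).

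Agreement of the lines was next read without a test, as a difference of at least 2-fold (log2 1) in the same direction in RCC4 and in UMRC2. This held for 182 genes that were higher and 210 that were lower, or 1.27% and 1.47% of the genes tested. Another 243 genes passed 2-fold in both lines with opposite signs. With the values as deposited, on which the median of all genes shifts from -0.02 to -0.18, the split was 149 higher and 294 lower. Of the 837 genes that were 2-fold higher in RCC4, 21.7% were so in UMRC2, and of the 1004 in UMRC2, 18.1% were so in RCC4. For genes that were 2-fold lower the shares were 23.6% of 889 in RCC4 and 20.2% of 1040 in UMRC2.

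Agreement depended on the level of the gene. Among genes with a mean log2 level of at least 8 over the 8 arrays, a limit chosen after this pattern was seen, 69 were 2-fold higher in both lines, 47 were 2-fold lower and 13 had opposite signs. Among those under 8 the counts were 113, 163 and 230. Across genes, which are not independent replicates and which share their arrays, the effects in the lines had a Pearson r of 0.388 over the 9144 brighter genes and 0.068 over the dimmer ones. The median standard error was 0.24 in the brighter genes and 0.59 in the dimmer ones. The brighter genes were also steadier in EV: the standard deviation of the EV response over them was 0.20 in RCC4 and 0.25 in UMRC2, against 0.41 and 0.49 for the FoxO1 response.

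**Figure D2:**
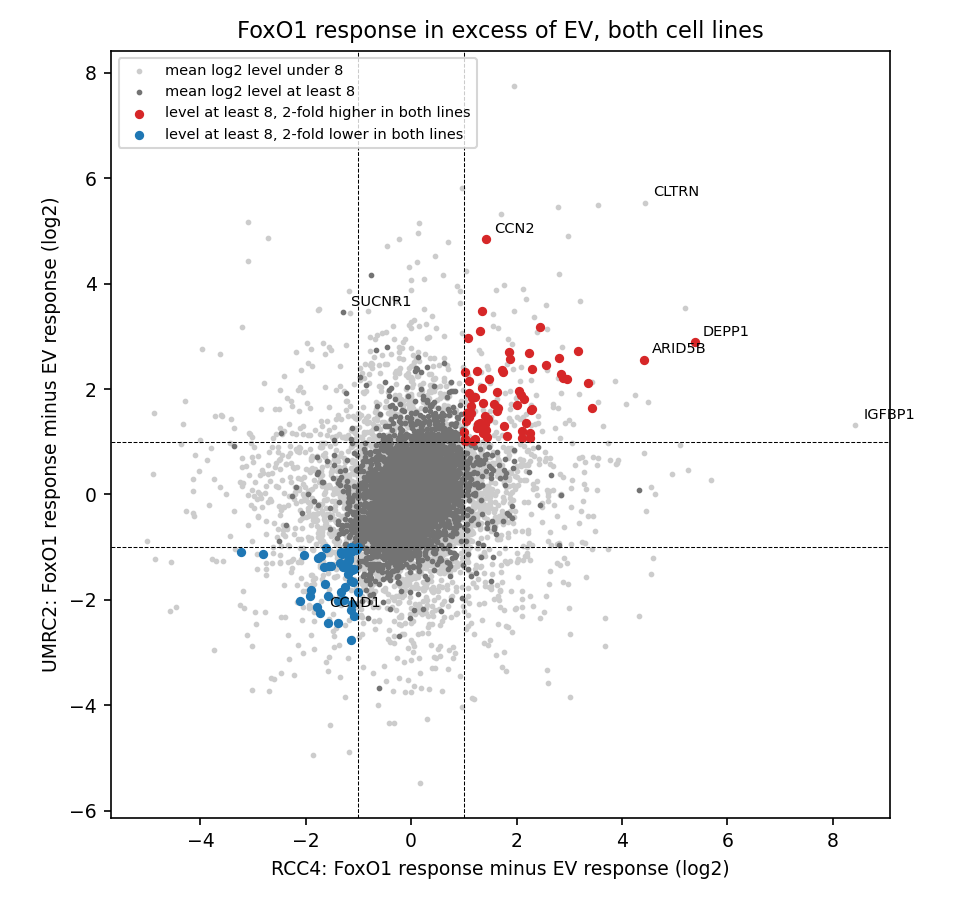
FoxO1 effect (FoxO1 response minus EV response, log2) in RCC4 (x axis) against UMRC2 (y axis), 1 point per gene; dashed lines mark 2-fold and colours mark the 69 higher and 47 lower genes with a mean log2 level of at least 8. Dimmer genes (light grey) spread widely on both axes with little relation between the lines, and CLTRN, ARID5B and DEPP1 lie far out in both.

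**Figure D3:**
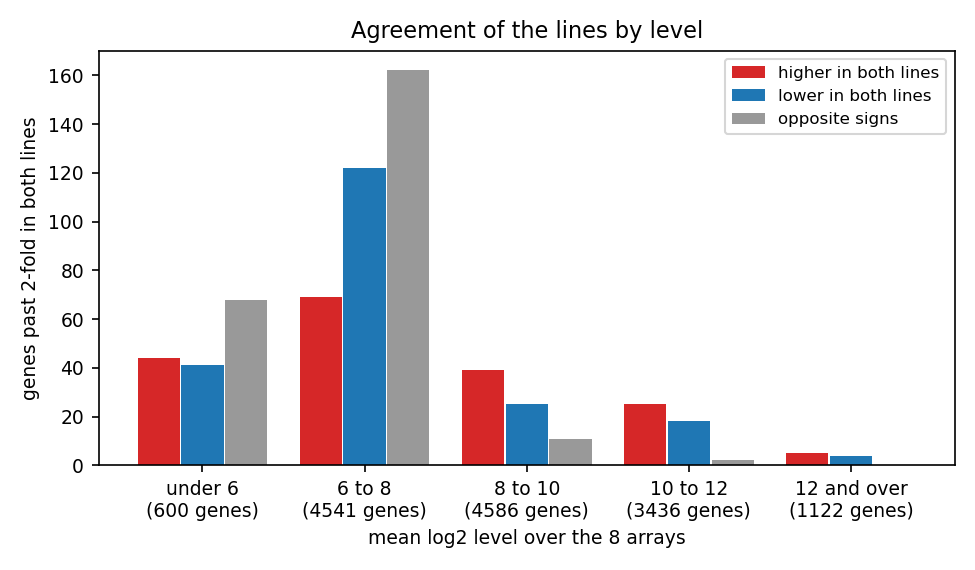
Number of genes past 2-fold in both lines (y axis) by mean log2 level over the 8 arrays (x axis), split into higher in both, lower in both and opposite signs. Opposite signs make up 162 of the 353 such genes at levels from 6 to 8 but 2 of 45 at levels from 10 to 12.

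In most of these brighter 2-fold genes the FoxO1 cells themselves moved. Of the 69 higher genes, 55 were also 2-fold higher with 4OHT than with vehicle in both FoxO1 lines before EV was subtracted, and of the 47 lower genes 35 were 2-fold lower. An EV response of 2-fold in the opposite direction, in either line, was present in 2 of the 69 and 0 of the 47. In the limma fit with the EV and FoxO1 responses alone, 61 of the 69 and 33 of the 47 were called. Over all genes tested 0.7% were called higher and 0.504% lower in that fit. Both sets were chosen on the same responses, so high shares follow from the choice and are no separate support. In the fit with all 6 responses the numbers were 11 and 0. The genes named from these sets below were chosen after their values were seen, beyond those the naming rule gives.

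Among the 69 brighter genes that were 2-fold higher, DEPP1, a small protein that FoxO factors are known to induce and that alters peroxisomes and autophagy, had the largest RCC4 effect. Its levels in RCC4 were 4.30 and 5.14 under EV and 4.94 and 11.15 under FoxO1. In UMRC2 they were 10.15 and 10.36 under EV and 10.49 and 13.60 under FoxO1. The start in RCC4 was near the floor and the start in UMRC2 was high, and the effects were 5.38 and 2.89 (mean 4.14 ± 0.89, adjusted p = 0.169 with all responses and 0.00771 with the EV and FoxO1 responses alone). ARID5B, a DNA-binding cofactor, gave 4.42 in RCC4 and 2.56 in UMRC2, and 1 of its 5 bright probe sets gave -0.0027.

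The genes below are examples from the 69, arranged by role after their values were seen, with no count of any role behind them. Of regulators of transcription, KLF5, KLF6 and CITED2, the last a partner of the CBP and p300 coactivators, gave 1.63, 2.25 and 2.25 in RCC4 and 1.95, 1.07 and 1.17 in UMRC2. FOXP1, a forkhead protein, gave 1.81 and 1.11, and BACH1, a repressor of antioxidant genes, gave 1.42 and 1.23. LBH, a transcription cofactor, gave 2.04 and 1.96. NUPR1, a small stress-induced chromatin protein, moved at a high level: in RCC4 it was 12.23 and 12.22 under EV and 12.40 and 14.14 under FoxO1, and in UMRC2 it was 10.96 and 10.98 under EV and 10.65 and 12.99 under FoxO1. Its effects were 1.75 and 2.33 (adjusted p = 0.0548 with all responses).

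Some of the higher genes restrain growth signals or cell division. BTG1, an antiproliferative factor known as a FoxO target, gave 1.76 in RCC4 and 1.30 in UMRC2. Its levels were 11.09 and 11.12 under EV and 11.07 and 12.86 under FoxO1 in RCC4, and 11.70, 11.56, 11.87 and 13.03 in the same order in UMRC2. ERRFI1, an inhibitor of the epidermal growth factor receptor, gave 1.18 and 1.01, and CBLB, a ubiquitin ligase for receptors, gave 1.31 and 3.11. CASTOR2, of the family that senses arginine upstream of the growth kinase mTORC1, gave 1.86 and 2.71. Outside this role, SGK1, a kinase related to AKT that acts on sodium transport and can phosphorylate FoxO proteins, gave 1.21 and 1.86.

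Others act in cell death, stress or the lysosome. TNFSF10, which encodes the death ligand TRAIL, went from 7.54 to 10.72 in RCC4 and from 11.24 to 12.79 in UMRC2 under FoxO1, against 7.68 to 7.42 and 11.51 to 11.41 under EV. MAP3K5, the stress kinase ASK1, gave 3.36 in RCC4 and 2.11 in UMRC2. IER3, an early stress response gene, gave 1.34 and 2.03. HERPUD1, which serves the removal of misfolded proteins from the endoplasmic reticulum, gave 1.11 and 1.93. RETREG1, the receptor for autophagy of the endoplasmic reticulum, gave 1.62 and 1.58. Other bright RETREG1 probe sets gave -0.50 and 1.53 in RCC4 and, in the same order, 1.05 and -0.82 in UMRC2. Its rise in both lines therefore depends on the probe set. TP53INP2, an autophagy scaffold, gave 1.39 and 1.33, and SMPD1, the lysosomal acid sphingomyelinase, gave 1.40 and 1.49.

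Receptors and secreted proteins among the higher genes included IL6R, the interleukin 6 receptor, with 2.27 in RCC4 and 1.60 in UMRC2. BMPR2, a receptor for bone morphogenetic proteins, gave 1.25 and 1.26, and its ligand family member BMP6 gave 1.44 and 1.09. LGR4, which strengthens Wnt signals, gave 2.19 and 1.35. NTN4, a netrin of basement membranes, gave 1.34 and 3.48, RELN 1.15 and 1.83 and TFPI, an inhibitor of coagulation, 1.06 and 1.55. CCN2, a matricellular growth factor, was very unequal, going from 5.99 to 8.02 in RCC4 and from 8.47 to 13.26 in UMRC2. NEDD9, an adhesion scaffold, was even, with 2.57 and 2.46 (adjusted p = 0.0509).

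Among the 47 brighter genes that were 2-fold lower, 2 growth drivers stood close to the threshold or had large effects. CCND1, cyclin D1, went from 9.53 to 7.62 in RCC4 and from 11.28 to 8.96 in UMRC2 under FoxO1, against 9.41 to 9.22 and 11.39 to 11.32 under EV. Its effect of -1.99 ± 0.24 had the smallest adjusted p of any lower gene, 0.0509. Another bright CCND1 probe set, of nearly the same mean level, gave -0.63 in RCC4 and -2.28 in UMRC2. The 2-fold size of its RCC4 fall therefore depends on the probe set. MYC, the growth-promoting transcription factor, went from 12.10 to 10.37 and from 12.51 to 10.50, against 11.79 to 11.85 and 12.61 to 12.73. Its effect was -1.96 ± 0.36 (adjusted p = 0.133 with all responses and 0.00214 with the EV and FoxO1 responses alone). In both genes the FoxO1 array with 4OHT was the lowest of the 4 EV and FoxO1 arrays of its line.

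The lower genes named next were likewise picked as examples after their values were seen, and none passed the limma test with all 6 responses. FOSL1, an AP-1 subunit, gave -1.58 in RCC4 and -1.93 in UMRC2, CREB5 gave -1.58 and -2.44, and PLK2, a kinase induced by serum, gave -1.32 and -1.84. WNT5B, a Wnt ligand, was even between the lines with -1.92 and -1.93 (-1.93 ± 0.24, adjusted p = 0.0513). IGFBP3, a carrier of insulin-like growth factors, gave -1.55 and -1.35 from levels above 12. CD70, a ligand of the tumour necrosis factor family that is abundant in clear cell kidney cancer, went from 10.45 to 9.38 and from 12.94 to 10.92 under FoxO1. PLAU, the urokinase protease, gave -1.14 and -2.77, HAS3, a hyaluronan synthase, -1.39 and -2.44 and TNFRSF19 -2.11 and -2.03, with 1 of 3 bright TNFRSF19 probe sets at 0.15.

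Examples with metabolic and transport roles follow. GART, of purine synthesis, gave -1.04 in RCC4 and -1.06 in UMRC2, with 1 other bright probe set at 0.0095. GLDC, of glycine breakdown, gave -1.09 and -1.42, ELOVL6, of fatty acid elongation, -1.62 and -1.02, and COQ8A, of coenzyme Q synthesis, -1.90 and -1.81. HKDC1, a hexokinase relative, gave -1.08 and -2.30. SLC4A4, the sodium bicarbonate cotransporter of the proximal tubule, went from 12.89 to 11.77 in RCC4 and from 10.14 to 8.51 in UMRC2, and SLCO4A1, an organic anion transporter, gave -1.52 and -1.36. GAL3ST1, a sulphatide-forming enzyme of kidney epithelium, gave -1.18 and -1.20.

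Promoter sequence was read for the genes with an entry in RefSeq's GRCh38.p14 promoter table, which matched 11456 of the 14285 genes tested. The 250 bases before each gene's start were searched on both strands for the 7-letter FoxO core GTAAACA, which reads TGTTTAC on the other strand, and for CAAAACA, which reads TGTTTTG there, the related element of insulin-responsive promoters; the words do not overlap each other. Either word was present in 4.97% of the genes tested, in 7 of 58 (12.1%) of the brighter 2-fold higher genes and in 4 of 40 (10%) of the brighter 2-fold lower genes. Of the 12 called genes 10 had an entry and 2, HNMT and NEDD4L, held CAAAACA. The stretches below are shown because their genes carry the effects described, with capitals marking the words; DEPP1 lies at chr10:44978963-44979022 (minus strand), BTG1 at chr12:92146029-92146088 (minus), HNMT at chr2:137964237-137964383 (plus), NEDD4L at chr18:58047019-58047078 (plus), WNT5B at chr12:1616996-1617055 (plus) and TXNIP at chr1:145996677-145996736 (minus), all upstream of the start and printed 5′ to 3′ on the gene's strand.
DEPP1: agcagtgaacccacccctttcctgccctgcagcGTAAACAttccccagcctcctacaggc
BTG1: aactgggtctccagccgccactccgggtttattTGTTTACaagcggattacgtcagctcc
HNMT: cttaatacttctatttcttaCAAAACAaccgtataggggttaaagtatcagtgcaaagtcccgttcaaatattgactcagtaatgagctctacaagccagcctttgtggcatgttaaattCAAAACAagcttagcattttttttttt
NEDD4L: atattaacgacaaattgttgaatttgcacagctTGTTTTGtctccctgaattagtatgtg
WNT5B: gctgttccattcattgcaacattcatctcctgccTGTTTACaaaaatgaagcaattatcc
TXNIP: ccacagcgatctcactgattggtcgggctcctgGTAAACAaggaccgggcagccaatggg
The word begins 180 bases before the start in DEPP1, 209 in BTG1, 216 and 116 in HNMT, 174 in NEDD4L, 26 in WNT5B and 124 in TXNIP. Both higher genes and lower genes are among them, and the searched window is short; a match is a description of the letters and not of binding.

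Known FoxO targets, taken from general knowledge, were read by role. Of 12 stress defence targets 7 were higher in both lines and 1 was lower, against 27.2% and 31.3% of all genes tested; 3 were 2-fold higher in both, and their median was 0.12 in RCC4 and 0.81 in UMRC2. Those 3 were DEPP1, CITED2 and KLF6. The lower one was TXNIP, a brake on glucose uptake whose promoter is shown above, with -1.09 and -0.98. TXNIP went from 9.99 to 8.88 in RCC4 under FoxO1, against 10.06 to 10.03 under EV, and in UMRC2 its response was -1.30 from 12.30 under FoxO1 and -0.32 from 12.16 under EV. The antioxidant enzymes SOD2 and CAT gave 1.12 and 0.85 in UMRC2 but 0.07 and 0.16 in RCC4, while the sestrin SESN1 gave 1.32 in RCC4 and -0.10 in UMRC2.

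IGFBP1, which binds insulin-like growth factors outside the cell and is a textbook FoxO1 target in liver, had the largest RCC4 effect of all genes tested and was very uneven. In RCC4 its levels were 4.20, the floor, and 5.61 under EV and 4.34 and 14.17 under FoxO1. In UMRC2 they were 4.99 and 4.62 under EV and 5.44 and 6.38 under FoxO1. The effects were 8.42 and 1.31, and the mean of 4.86 ± 1.43 did not pass (adjusted p = 0.338). Of 9 metabolic targets tested, IGFBP1 among them, 2 were higher in both lines and 3 lower, against 27.2% and 31.3% of all genes tested. The medians of these targets were 0.06 in RCC4 and -0.22 in UMRC2. The coactivator gene PPARGC1A gave -1.89 and -1.53, with another bright probe set at 0.083, and LPIN1 gave -0.38 and -1.08. GLUL, glutamine synthetase, gave 0.57 and 0.56. PDK4, a mitochondrial kinase that spares glucose, was at the floor on 3 of 4 RCC4 arrays and gave -0.22 in UMRC2; its mean of -0.08 turned to 0.042 with the values as deposited, and its other bright probe set gave 0.54.

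Of 13 cell cycle targets tested, 5 were higher in both lines and 3 lower, with medians of 0.04 in RCC4 and 0.19 in UMRC2. Among them, CDKN1B, the p27 inhibitor, gave 0.55 in RCC4 and 0.60 in UMRC2 (adjusted p = 0.296). CCNG2, a cyclin of arrested cells, gave 0.38 and 0.80 and the stress gene GADD45B 0.68 and 0.62, with another bright probe set at -0.40. CDKN1A, the p21 inhibitor, was on the other side with -0.72 and -0.37. RBL2, BCL6, MXI1 and GADD45A each had opposite signs in the lines, and another bright BCL6 probe set gave -0.15 against 0.34. Of 15 inhibitors and brakes of the cell cycle in a wider list, 10 were higher in both lines and 2 lower. The shares over all genes tested were 27.2% and 31.3%. The list had medians of 0.38 and 0.28, 0 of its genes were called by limma and BTG1 was 2-fold higher. The median of the mean effect over this list was 0.27, and 0.079 with the values as deposited, which is 0.29 and 0.26 above the median of all genes tested on the same scale.

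Death targets were led by TNFSF10, with 5 of 9 tested higher in both lines and 2 lower, against 27.2% and 31.3% of all genes tested. BCL2L11, the death-promoting protein BIM, gave 2.33 in UMRC2, from 9.02 to 11.36, and 0.19 in RCC4, where the EV response was itself 0.52. BNIP3, at 13.53 to 13.83 on all 8 arrays, gave 0.10 and 0.02, and its mean of 0.06 turned to -0.080 with the values as deposited. BCL2L1, a survival protein, gave -0.33 and -1.03, with another bright probe set at 0.063.

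Targets in growth receptor signalling leaned higher. Of 9 tested, 5 were higher in both lines and 0 lower, against 27.2% and 31.3% of all genes tested, with medians of 0.65 and 0.21. SPRY2, an inhibitor of receptor kinase signals, gave 3.08 in RCC4, where EV with 4OHT was at the floor, and 1.33 in UMRC2. ERBB3, a receptor of the epidermal growth factor family, gave 1.54 and 0.75, IGF1R 0.92 and 0.61 and IRS1 0.65 and 0.54. Other bright ERBB3 probe sets gave 1.01 to 4.13 in RCC4 and -0.15 to 1.80 in UMRC2. The UMRC2 rise of ERBB3 therefore depends on the probe set. For IRS1, another bright probe set gave -0.23 in RCC4 and 0.44 in UMRC2. IRS2 and INSR, the insulin pathway members best known as FoxO targets, had opposite signs in the lines, with 0.24 and -0.85 for IRS2 and 0.69 and -0.13 for INSR, of which other bright probe sets gave -0.26 and -0.67. Of 10 targets in proteolysis and autophagy, 5 were higher in both lines and 0 lower, set against the same shares of all genes. The higher ones included MAP1LC3B with 0.50 and 0.42, GABARAPL1 with 0.31 and 1.17 and the muscle atrophy ligase FBXO32 with 0.90 and 1.14. For FBXO32, 2 of the bright probe sets gave -0.19 and -0.98. Of FoxO1 targets known from lymphocytes only IL7R and KLF2 were tested. On the probe sets used, both were 2-fold lower in both lines, against 1.47% of all genes tested. IL7R gave -1.67 in RCC4 and -1.26 in UMRC2, and KLF2 -1.19 and -1.67. Another bright probe set gave 0 and -4.28 for IL7R, and 0.46 and -1.23 for KLF2. The RCC4 fall of both genes therefore depends on the probe set. Of 5 targets known from endothelium 2 were higher in both lines and 1 was lower, against 27.2% and 31.3% of all genes tested. The lower one was again KLF2, on the probe set used.

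Ribosome biogenesis genes were the most one-sided of the lists with at least 9 genes tested. Of 37 tested, 33 were lower in both lines and 0 were higher in both, against 31.3% and 27.2% of all genes. However, 0 passed the limma test with all 6 responses. With the EV and FoxO1 responses alone 6 passed, all lower, against 0.504% lower over all genes tested. The median was -0.51 in RCC4 and -0.74 in UMRC2, against -0.01 and -0.03 over all genes. TSR1, which matures the small ribosomal subunit, went from 11.50 to 10.06 in RCC4 and from 11.69 to 10.63 in UMRC2 under FoxO1, against 11.22 to 11.50 and 11.54 to 11.65 under EV. POLR1B, a core subunit of RNA polymerase I, went from 10.34 to 9.21 and from 10.50 to 9.20, against 10.38 to 10.40 and 10.39 to 10.47. NLE1 and URB2, factors of the large subunit, had means of -1.35 and -1.17. Outside this list, the RNA polymerase III subunit gene POLR3E gave -1.14 and -1.09, the ribosome helicase gene DHX37 -1.29 and -1.37 and the tRNA synthetase gene FARSA -1.16 and -1.03.

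Genes of G1/S and DNA replication were mostly lower, and those of mitosis were split. Of 41 replication genes 33 were lower in both lines and 1 was higher, against 31.3% and 27.2% of all genes tested. The medians were -0.29 in RCC4 and -0.57 in UMRC2. With the EV and FoxO1 responses alone 4 passed, all lower, against 0.504% lower over all genes tested. MCM3, of the replicative helicase, gave -0.75 and -1.10 and MCM7 -0.80 and -0.79. Another bright MCM7 probe set gave 0.17 in RCC4 and -0.58 in UMRC2. UNG, a repair glycosylase, gave -0.85 and -1.82, and E2F2, a driver of S phase genes, -0.77 and -0.84. Of 40 mitosis genes 10 were lower in both lines and 14 higher, with medians of 0.05 and -0.03, and the mean over lines had a median of 0.04 that turned to -0.14 with the values as deposited, to -0.02 with common medians and to -0.04 with the mean of bright probe sets. The mitotic kinase gene AURKA gave 0.34 and 0.18 and the kinetochore genes SPC25 and NDC80 0.24 and -0.17 in RCC4 and 0.17 and -0.18 in UMRC2; 1 AURKA probe set gave -0.22.

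Lipid genes followed in part, read against 27.2% higher and 31.3% lower in both lines over all genes tested. Of 12 fatty acid synthesis genes 9 were lower in both lines and 1 higher, with medians of -0.27 and -0.59. Beside ELOVL6 these included FADS2 with -1.23 and -0.70, SCD with -0.33 and -0.66 and ELOVL5 with -0.42 and -0.38, all of chain elongation or desaturation. Cholesterol synthesis was less one-sided, with 9 of 19 genes lower in both lines and 3 higher, and medians of -0.01 in RCC4 and -0.29 in UMRC2. DHCR7 gave -0.58 and -0.74 and SQLE -0.31 and -0.57.

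Lists of stress and organelle genes had medians nearer to 0. Their counts stand against 27.2% higher and 31.3% lower in both lines over all genes tested. Of 37 autophagy and lysosome genes 17 were higher in both lines and 4 lower, but the median of the mean effect, 0.13, turned to -0.04 with the values as deposited and to -0.0046 with the mean of bright probe sets. LAMP2, of the lysosome membrane, gave 0.79 and 0.41 and the protease gene CTSB 0.50 and 0.55, while CTSD gave -0.51 and -0.54. Of 18 antioxidant genes under NRF2, 12 were lower in both lines and 2 higher, with medians of -0.11 and -0.13; GCLM, of glutathione synthesis, gave -0.49 and -0.51 and SRXN1 -0.49 and -0.38. Of 20 genes of endoplasmic reticulum stress 6 were higher and 3 lower, HERPUD1 being 2-fold higher and XBP1 at 0.28 and 0.37. Of 26 targets of ATF4 and tRNA synthetases 6 were higher and 13 lower, with TRIB3 at -0.49 and -1.12, IARS1 at -0.57 and -1.01 and CHAC1 at 0.46 and 0.60.

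Hypoxia-inducible factor targets, which are constantly active in kidney cancer lines without VHL, were split. Of 36 tested, 12 were higher in both lines and 14 lower, against 27.2% and 31.3% of all genes tested, with medians of 0.00 and -0.06. HK2, a hexokinase, gave -0.75 and -1.59 and CA12, a carbonic anhydrase, -1.31 and -0.57, while LOX, a collagen crosslinker, gave 0.89 and 0.64. VEGFA, the vascular growth factor, gave -0.29 and -0.83. Targets of the estrogen receptor, read because 4OHT is a ligand of it, were 5 higher and 5 lower in both lines of 13, with TFF1 at 1.55 and 0.56 and SIAH2 at -0.46 and -1.47. The kidney lineage factor PAX8 gave -0.65 and -0.58 at levels of 11.84 to 12.58. Of 19 genes of the proximal tubule and kidney 8 were higher and 6 lower, with CLTRN the 1 called gene among them.

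**Figure D4:**
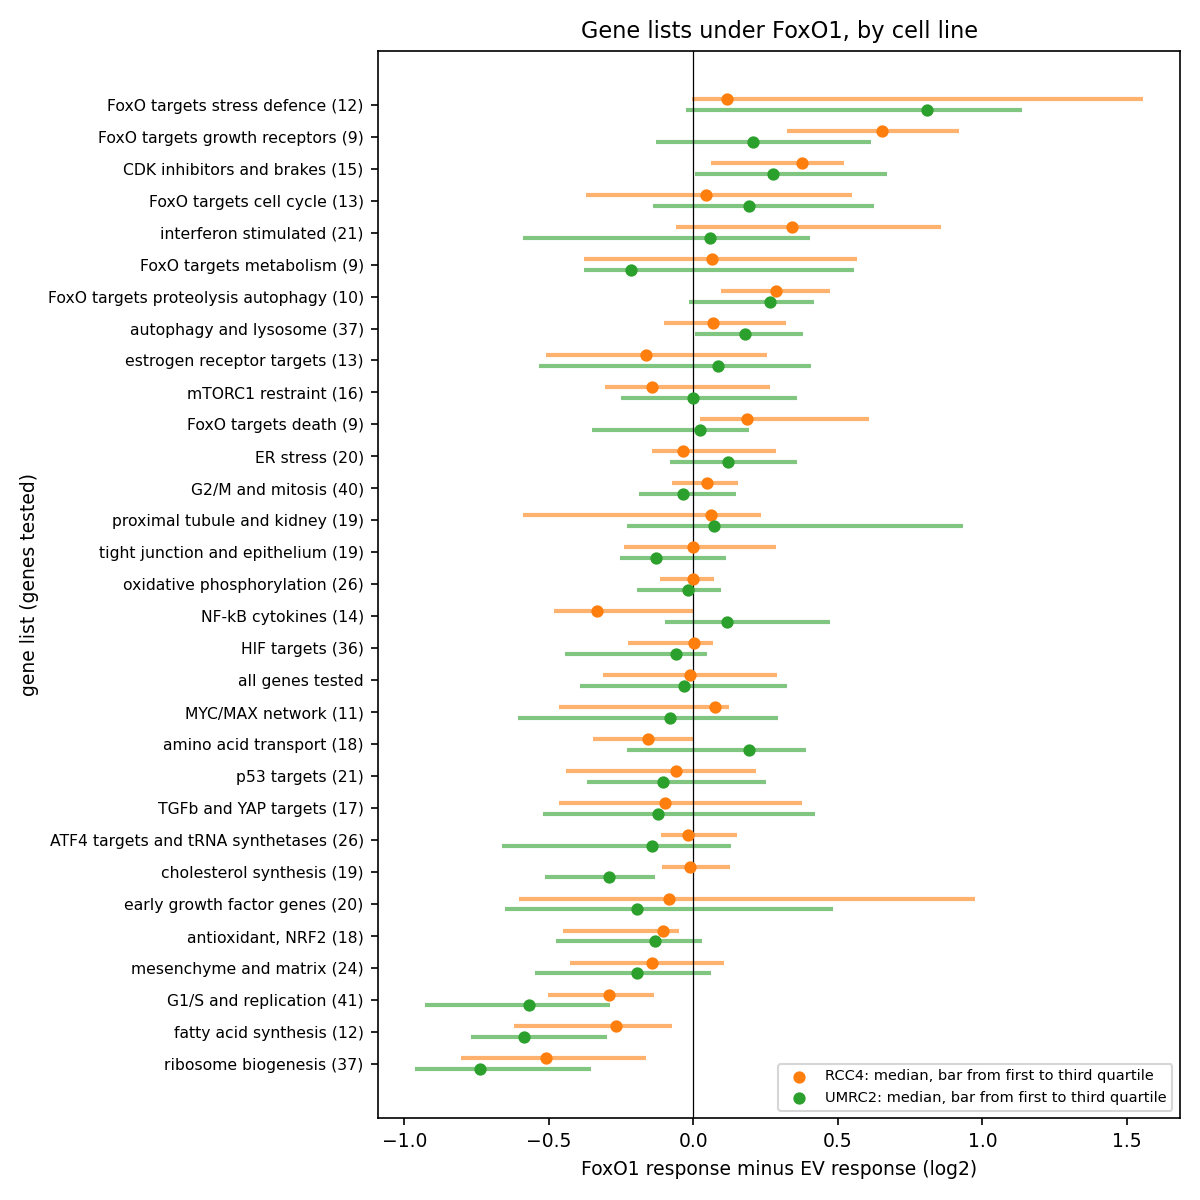
FoxO1 effect (log2, x axis) of each gene list (y axis, number of genes tested in parentheses), with the median as a point and a bar from the first to the third quartile, RCC4 in orange and UMRC2 in green. Of these lists, each with at least 9 genes tested, ribosome biogenesis has the lowest median in both lines, at -0.51 and -0.74, while all genes tested lie at -0.01 and -0.03.

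FoxO3 cells were compared only to show where the FoxO1 effect differs. The FoxO1 and FoxO3 effects share their EV arrays, so they are given side by side, and the test is of FoxO3 response against FoxO1 response. The estimate of this difference does not use EV, but its p-values do, since the EV responses add to the estimate of the spread. By limma 310 genes were higher under FoxO3 and 522 lower, or 2.17% and 3.65% of genes tested; the total of 832 was 37 without the RCC4 FoxO1 pair, 261 without the UMRC2 FoxO1 pair, 521 without the RCC4 FoxO3 pair and 46 with the values as deposited. Of the 69 brighter 2-fold higher genes 15 were higher under FoxO3 and 1 was lower; of the 47 lower ones 8 were lower still. The fusion transcript was more abundant in FoxO3 cells: the ESR1 probe set used stood with vehicle at 9.22 in RCC4 FoxO1 and 12.99 in RCC4 FoxO3, and at 12.59 and 13.55 in UMRC2. The RCC4 FoxO3 array with 4OHT had a deposited median of 74.6 against 121.2 to 138.7 for the RCC4 EV and FoxO1 arrays. Their part in these differences was not tested.

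The 1 brighter gene that was 2-fold higher under FoxO1 and lower under FoxO3 than under FoxO1 was LRATD2, a little-studied gene. Its levels in RCC4 were 9.97 and 9.95 under EV and 9.85 and 12.12 under FoxO1, and in UMRC2 they were 10.52 and 10.35 under EV and 9.99 and 12.21 under FoxO1. The FoxO1 effects were 2.29 and 2.39, and the FoxO3 effects were -0.48 and 0.62. FoxO3 minus FoxO1 was -2.27 (adjusted p = 0.0123). Its other bright probe set gave the same order, with 0.68 and 0.95 for FoxO1 and -0.89 and -0.56 for FoxO3. The FoxO1 effect of 2.34 ± 0.29 itself had an adjusted p of 0.0513 with all responses.

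Of the 12 called genes 5 were further up under FoxO3. DOCK8 differed by 1.88 (adjusted p = 0.0179), SNAP23 by 1.43, ARHGEF28 by 1.41, NEDD4L by 1.23 and CEBPD by 0.89. For CYP27A1 the FoxO3 effect was 1.55 against 2.70 for FoxO1, a difference of -1.15 that did not pass (adjusted p = 0.0552), and for CLDN1 it was 2.01 against 2.46. Of 15 cell cycle inhibitors and brakes 4 were higher under FoxO3 by limma, against 2.17% of all genes tested. FoxO3 minus FoxO1 was 1.5 for CCNG2, 1.06 for CDKN1B, 1.19 for RBL2 and 1.04 for BTG1. It was 1.38 for MXI1, an antagonist of MYC. PDK4, at -0.08 under FoxO1, was at 3.97 under FoxO3. Mitosis genes also parted the factors. For 31 of 40 the FoxO3 response was the lower one by limma, against 3.65% of all genes tested. The FoxO3 medians were -1.10 and -1.12 against 0.05 and -0.03 for FoxO1. VEGFA was -0.56 under FoxO1 and -2.87 under FoxO3, a difference of -2.30 (adjusted p = 0.00818). CCND1, MYC, WNT5B and TXNIP were not told apart by this test.

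**Figure D5:**
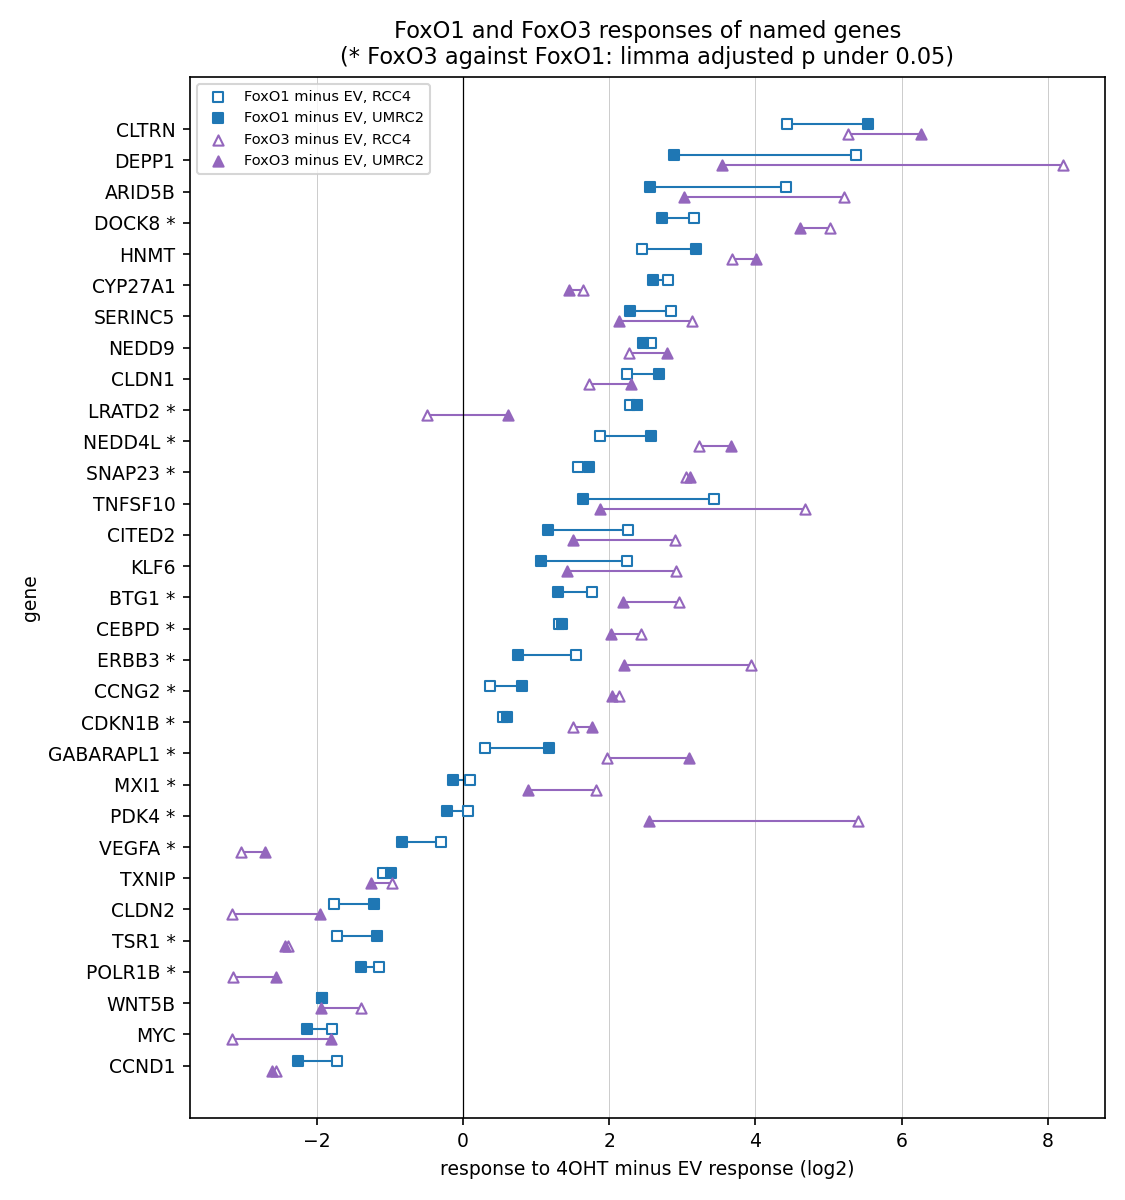
Effects relative to EV (log2, x axis) of 31 named genes (y axis) under FoxO1 (squares) and FoxO3 (triangles), open for RCC4 and filled for UMRC2, with a line joining the lines; an asterisk marks an adjusted p under 0.05 for FoxO3 against FoxO1. LRATD2 is high under FoxO1 alone (2.29 and 2.39), and PDK4, MXI1 and VEGFA lie near 0 or closer to it under FoxO1.

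Several dim genes had large values in both lines. On the higher side, SLC40A1, the iron exporter, went from 6.29 to 9.08 in RCC4 and from 6.80 to 11.11 in UMRC2 under FoxO1, against 6.27 to 6.24 and 6.45 to 6.57 under EV, with 1 bright probe set at -0.14. MAP3K7CL gave 2.97 and 4.90, with 8.69 to 13.56 in UMRC2. For these the FoxO1 arrays with 4OHT stood apart. In LINC02355, ADAM22 and LRRC56, by contrast, EV moved as well: LINC02355 went from 6.27 to 4.64 and from 6.93 to 4.42 under EV, while FoxO1 went from 4.62 to 6.54 and from 4.51 to 7.49. ADAM22 went from 7.23 to 4.41 in RCC4 under EV and stayed at 7.42 and 7.47 under FoxO1.

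On the lower side this pattern was common. For GLRA2, a glycine receptor gene, EV went from 4.47 to 6.75 in RCC4 and from 4.20 to 6.84 in UMRC2, while FoxO1 went from 6.19 to 4.73 and from 6.97 to 6.66. SULT4A1 moved from 4.92 to 6.98 and from 5.05 to 7.22 under EV and from 7.04 to 6.49 and from 7.30 to 5.96 under FoxO1. Of the 210 genes that were 2-fold lower in both lines, 101 had an EV response of 2-fold upward in at least 1 line, and 80 were 2-fold lower in both FoxO1 lines before EV was subtracted. Of the 182 higher genes 67 had an EV response of 2-fold downward and 96 were 2-fold higher without subtraction. HBBP1 and LIAS were exceptions in that most of the movement lay in the FoxO1 cells. Under FoxO1, LIAS went from 7.25 to 4.66 and from 7.03 to 4.27. Its effects after EV was subtracted were -2.23 and -3.43, so EV moved as well, by a smaller amount.

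Among genes with at most 2 of the 8 arrays at the floor and 2-fold effects of opposite sign, the lines differed most in EPHB3, RNF5, PLA2G2A, NPY6R and SSTR4. EPHB3, a receptor tyrosine kinase, gave -2.71 in RCC4 and 4.86 in UMRC2, with levels between 4.20 and 6.87 over the 8 arrays. All 5 lay around or under the array median, between 4.20 and 7.57.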

How the data were processed

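RNA of RCC4 and UMRC2 cells was measured on Affymetrix U133 Plus 2.0 arrays, 1 per engineered line and treatment. The deposited values are linear probe set intensities made with MAS5, per the submitters' processing notes; its scaling target and version are not given in the sources used here, and array medians differed as deposited (71.1 to 138.7 over the 8 arrays).

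From 54675 probe sets, 62 controls were left out and 41091 with 1 gene symbol in the platform annotation were used (1801 had several, 11721 none). All 12 arrays were quantile-normalised, floored at the 20th percentile (intensity 18.4) and taken to log2. The probe set with the highest mean stood for each gene. Genes at or above the array median on at least 2 arrays were tested.

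limma 3.58.1 in R 4.3.3 was fitted to the 6 responses (4OHT minus vehicle; EV, FoxO1 and FoxO3 in each line) with terms for construct and line and a prior variance following the mean level. Tests were two-sided, with Benjamini-Hochberg adjustment over all genes tested. The fit was tested on simulated data with 200 changed genes. With all 6 responses it recovered 4.5% of changes of log2 1 and 48.5% of changes of log2 2. At a mean log2 level of at least 8 the shares were 6.57% and 75.2%. With the EV and FoxO1 responses alone it recovered 0% and 61.5% over all levels. A gene that was not called is therefore not shown to be unchanged. Alternatives covered scaling, floor, filter, probe set choice, prior variance, samples in the fit, left-out pairs and the fold threshold.

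The comparison and gene lists were chosen with earlier results of these data known. Genes were named if past the limma threshold; if among the 15 higher or 15 lower with the largest smaller value of both lines, with at most 2 of 8 arrays at the floor; if among the leading 4 of a list; if on a fixed list of known targets; or if among the 5 with the largest opposite effects. Beyond this rule the text names genes of higher level chosen after their values were seen.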

Additional observations from a re-analysis of the deposited data

Results flagged for a closer look

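For 48 of the 173 genes considered for the text the FoxO3 response differed from the FoxO1 response at an adjusted p under 0.05 by limma. Over all genes tested 2.17% were higher under FoxO3 and 3.65% lower. Part of the 173 were named for their FoxO1 values, so the count is no result about them as a group. Values are FoxO3 minus FoxO1 on the log2 scale, with both cell lines in each mean. The FoxO3 response was higher in ARHGEF28 by 1.41, BCL6 by 2.02, BMPR2 by 0.86, BTG1 by 1.04, CCNG2 by 1.5, CDKN1B by 1.06, CEBPD by 0.89 and DOCK8 by 1.88. Higher values under FoxO3 were also found in ERBB3 by 1.92, ERRFI1 by 1.47, GABARAPL1 by 1.79, GLUL by 1.02, IGF1R by 0.90, LBH by 2.00, MAP1LC3B by 0.62 and MTR by 0.86. Further higher ones were MXI1 by 1.38, NEDD4L by 1.23, PDK4 by 4.05, RBL2 by 1.19, RETREG1 by 1.95, SLC40A1 by 2.39, SNAP23 by 1.43 and TFPI by 0.95. The FoxO3 response was higher in TPPP by 4.29.

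The FoxO3 response was lower in AEN by -1.92, AURKA by -1.36, CHAC1 by -1.5, DDIT4 by -1.52, ELOVL5 by -1.24, FARSA by -1.18, GLDC by -1.01 and HK2 by -1.29. Lower values under FoxO3 were also found in IARS1 by -0.94, LRATD2 by -2.27, MCM3 by -1.04, MCM7 by -1.03, POLR1B by -1.58, SCD by -0.90, SLC4A4 by -1.41 and SPC25 by -1.14. Further lower ones were SQLE by -1.48, SRXN1 by -0.68, TRIB3 by -2.26, TSR1 by -0.96, URB2 by -1.56, VEGFA by -2.30 and XBP1 by -1.01.

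In 5 genes the FoxO1 effect had opposite signs in the lines, and this difference was not tested, since each line has 1 array per condition. RCC4 minus UMRC2 was -7.57 in EPHB3, 6.64 in NPY6R, -6.72 in PLA2G2A, -7.52 in RNF5 and 6.55 in SSTR4 on the log2 scale.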

How the results depend on the processing

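Against 12 higher and 0 lower genes as reported, the limma counts were 27 and 9 with arrays scaled to a common median, 24 and 5 with the floor at the 30th percentile, 14 and 1 with the values as deposited, and 100 and 72 with the EV and FoxO1 responses only. With the mean of a gene's bright probe sets 1 was higher, with no cell line term 2, and with no filter or a constant prior variance 0 (1719 and 1139 at an unadjusted p under 0.05). Leaving out 1 vehicle and 4OHT pair gave 0 to 100 higher genes and 0 to 72 lower ones. The 832 genes that differed between FoxO3 and FoxO1 became 46 with the values as deposited, 0 with no filter and 0 with a constant prior variance, and 37 to 1017 with 1 pair left out. The 2-fold counts of 182 and 210 were 327 and 371 with no filter, 111 and 122 with the filter at 6 of 12 arrays, 563 and 640 at 1.5-fold, 34 and 26 at 4-fold, and 69 and 47 at a mean log2 level of at least 8, a limit chosen after seeing the data; the lower count was 115 without EV subtraction and 130 against EV with 4OHT. Gene values were compared under common medians, the values as deposited, floors at the 10th and 30th percentile and the mean of bright probe sets. The other settings were not included. Of 865 such values 799 kept their direction and side of the threshold, 38 came past it, 22 dropped under it and 6 turned sign. Most of the 173 genes behind them were not called as reported, so keeping their side mostly means staying uncalled. Of the 12 calls 3 were kept with the values as deposited, 10 with common medians and 1 with the mean of bright probe sets. The sign turned for PDK4 to 0.042 with the values as deposited, 0.48 with the floor at the 10th percentile and 0.23 with the mean of bright probe sets. It turned for BNIP3 to -0.080 with the values as deposited, and for FOXO1 to 0.14 and CCND2 to 0.069 with the mean of bright probe sets. Of 35 list medians 11 turned sign with the values as deposited, among them proteolysis and autophagy targets (0.19 to -0.019), death targets (0.076 to -0.080) and endoplasmic reticulum stress (0.064 to -0.10). All 35 were then lower, and the median of all genes went from -0.02 to -0.18; relative to that median 1 list, of NF-kB cytokines, turned sign (0.0082 to -0.036). Of the other settings tried on lists, the mean of bright probe sets turned 6, common medians 3 and the floor at the 10th percentile 1. The cause was not tested. The reported fit was already paired: vehicle and 4OHT arrays were joined per engineered line, with the cell line as a block. A further block by replicate number could not be fitted, since each combination has 1 array. Signal near the floor limits the dimmer genes.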
